A study of Rattus norvegicus with 9 samples.

Results

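The 10 genes described here make, branch or break down glycogen, or bring a phosphatase to it: Ppp1r3a, Ppp1r3c, Ppp1r3d, Gyg1, Ugp2, Gys1, Gbe1, Pygm, Pygb and Phka1. They were taken by gene name from the deposited tables, where they have 16 of 55767 transcripts, and the values of the transcripts of a gene were summed. They are 10 of 22608 genes in all, and each of the 10 was among the 15467 genes with enough counts to be tested. The genes were chosen by their role in glycogen metabolism and selected on earlier results from these same libraries, namely their levels and differences in all 3 comparisons. Their levels, differences and adjusted p-values are therefore a description of the members and no independent evidence about them.

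Total RNA was sequenced from left ventricles of rats of the Sprague-Dawley stock that received saline, angiotensin II (Ang II, a peptide hormone that raises blood pressure), or Ang II with sodium butyrate (NaBu, a short-chain fatty acid salt that inhibits histone deacetylases) for 28 days. Each of the 3 groups has 3 libraries, and the rats of every group were labelled as 8 weeks old before the 28 days, with no dose given. Below, NaBu as a group name stands for the rats that received Ang II together with NaBu, and no group received NaBu alone. Saline and Ang II libraries are numbered 1, 2 and 3, and the NaBu libraries 2, 4 and 6, as in the column names. Whether libraries of a group stem from separate rats is not labelled, so p-values measure only the spread between these samples, which may be technical.

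Glycogen is the branched glucose polymer in which muscle, heart muscle included, stores glucose. Its synthesis starts on glycogenin (Gyg1), uses UDP-glucose made by Ugp2, lengthens chains with glycogen synthase (Gys1) and adds branches with the branching enzyme (Gbe1). Its breakdown is carried out by glycogen phosphorylase, of which Pygm is the muscle and Pygb the brain isoenzyme, and phosphorylase kinase, with Phka1 as a regulatory subunit, switches phosphorylase on. Protein phosphatase 1, held on glycogen by targeting subunits such as Ppp1r3a, Ppp1r3c and Ppp1r3d, activates the synthase and inactivates phosphorylase.

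The 250 bases before the annotated start of each gene were read from RefSeq windows of the rat build GRCr8, in which 10 of 10 members were found. Those printed belong to Ppp1r3a, whose level spread most within a group, and to Gbe1 and Ppp1r3d, which passed the test between NaBu and saline. Also printed are the windows of Gys1 and Pygm, whose levels followed each other most closely over the 9 libraries. Each runs 5′ to 3′ on the strand of its gene, with capitals for the letters that matched 1 of 5 motifs on either strand. The windows lie at chr4:43946237-43946486 (minus strand) for Ppp1r3a, chr3:185883159-185883408 (minus strand) for Ppp1r3d, chr1:105051666-105051915 (plus strand) for Gys1, chr11:22181026-22181275 (plus strand) for Gbe1 and chr1:213119555-213119804 (plus strand) for Pygm.
Ppp1r3a: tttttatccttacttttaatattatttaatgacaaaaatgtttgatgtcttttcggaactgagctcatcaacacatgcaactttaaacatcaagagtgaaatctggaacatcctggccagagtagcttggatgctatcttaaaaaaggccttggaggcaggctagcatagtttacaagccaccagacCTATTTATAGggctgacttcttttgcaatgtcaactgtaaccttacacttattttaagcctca
Ppp1r3d: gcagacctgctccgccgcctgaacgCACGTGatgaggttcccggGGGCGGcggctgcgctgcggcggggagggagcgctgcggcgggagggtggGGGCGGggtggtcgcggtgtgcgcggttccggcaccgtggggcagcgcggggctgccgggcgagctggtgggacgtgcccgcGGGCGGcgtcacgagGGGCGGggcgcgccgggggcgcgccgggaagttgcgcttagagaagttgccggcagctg
Gys1: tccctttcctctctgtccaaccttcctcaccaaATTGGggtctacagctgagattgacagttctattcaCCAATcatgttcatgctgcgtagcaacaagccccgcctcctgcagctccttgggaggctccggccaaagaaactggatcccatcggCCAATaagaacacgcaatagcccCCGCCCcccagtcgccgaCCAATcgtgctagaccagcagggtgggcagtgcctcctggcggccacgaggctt
Gbe1: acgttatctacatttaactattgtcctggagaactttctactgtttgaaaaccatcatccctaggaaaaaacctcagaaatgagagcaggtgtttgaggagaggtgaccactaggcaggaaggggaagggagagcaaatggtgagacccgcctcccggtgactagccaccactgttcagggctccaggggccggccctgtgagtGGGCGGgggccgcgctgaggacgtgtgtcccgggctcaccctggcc
Pygm: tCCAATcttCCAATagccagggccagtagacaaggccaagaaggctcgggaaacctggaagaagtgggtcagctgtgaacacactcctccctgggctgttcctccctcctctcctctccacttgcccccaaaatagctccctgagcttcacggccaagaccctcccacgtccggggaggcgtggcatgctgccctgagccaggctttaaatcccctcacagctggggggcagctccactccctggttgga

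In the Ppp1r3a window the capitals mark a match to the MEF2 motif, named for a family of muscle transcription factors, between 63 and 54 bases before the start. That motif is in 2.961% of all 33469 RefSeq windows of this length and in no other member's window. The same letters hold TATAAA on the other strand (60 to 55 bases before the start), which 12.93% of all windows contain and no other member does. The window of Ppp1r3d has CACGTG, which reads the same on both strands, at 225 to 220 bases before the start, and GGGCGG 4 times. CACGTG is in 5.593% of all windows and in 3 members (Ppp1r3c, Ppp1r3d and Gyg1), and GGGCGG or its complement is in 30.47% of all windows and in 6 members. CCAAT or its complement is in 34.02% of all windows and in 4 members, with 4 copies in Gys1, 2 in Pygm and 1 each in Ppp1r3c and Phka1. The window of Gbe1 holds GGGCGG once, at 46 to 41 bases before the start. These matches describe the letters only, and no binding was measured.

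Levels are given as counts per 1000000 (CPM) of the library total after scaling with edgeR's TMM factors, as mean ± SD over 3 libraries. Total estimated counts per library ranged from 29284780 to 49865446, and the TMM factors from 0.887 to 1.14. Replicates correlated over genes with r from 0.963 to 0.976 in saline, 0.980 to 0.984 in Ang II and 0.984 to 0.986 in NaBu. All 12 ventricular cardiomyocyte markers were above 0 in each library. A level above 0 is too weak a criterion to tell ventricle from atrium, and saline 2 met it too. The 12 markers summed to 84346, 59551 and 96668 CPM in saline 1, 2 and 3. They summed to 78468 to 83252 CPM in Ang II and to 90739 to 99879 CPM in NaBu. Saline 2 stood apart: its 10 atrial markers summed to 6039 CPM, against 111 to 361 CPM in the other 8 libraries, and its ventricular sum was the lowest. Results whose call or size changes most without saline 2 are therefore also given without it. Saline 2 is in neither group of NaBu against Ang II, where leaving it out bears only on what the 3 groups share in the fit. In that comparison edgeR called 248 of all genes with saline 2 and 1482 without it. Single genes called there without saline 2 are to be read beside that change. Saline 3 held atrial transcripts too, with Myl7 at 27.2, Bmp10 at 22.2 and Myl4 at 17.3 CPM. These were at 789, 646 and 561 CPM in saline 2. They were at most 3.98, 0.693 and 5.03 CPM in the libraries other than saline 2 and 3. Results without saline 2 thus still include some atrial transcripts. In whole tissue, fewer cells of a type and less RNA per cell cannot be told apart.

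Ppp1r3a, the large muscle subunit that holds protein phosphatase 1 on glycogen and on the sarcoplasmic reticulum, was at 181, 22.7 and 142 CPM in saline 1, 2 and 3. It was at 36.0, 53.5 and 33.2 CPM in Ang II 1, 2 and 3, and at 32.1, 35.5 and 44.4 CPM in NaBu 2, 4 and 6. Saline 1 and saline 3 lay above every other library and saline 2 lay below every other library, so saline overlapped both treated groups. Ang II and NaBu covered nearly the same range, with means of 40.9 ± 11.0 and 37.3 ± 6.37 CPM (SD, n = 3), and saline averaged 115 ± 82.4 CPM.

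The difference of Ppp1r3a between Ang II and saline was -1.49 on the log2 scale (SE 0.555, edgeR adjusted p = 0.758 over 15467 genes), and between NaBu and saline -1.62 (SE 0.557, edgeR adjusted p = 0.111). Without saline 2, Ppp1r3a fell by 1.99 from saline to Ang II (SE 0.211, edgeR adjusted p = 0.0458). From saline to Ang II with NaBu it then fell by 2.10 (SE 0.211, edgeR adjusted p = 0.00935). Over all alternatives its edgeR or DESeq2 adjusted p ranged from 0.0167 to 1 for Ang II and from 0.00655 to 0.405 for NaBu, and the difference was negative in all of them. The low end of both ranges comes from leaving out saline 2 and 3 together, which leaves saline 1, the highest library, as the only saline sample, assumed to vary like the other groups. Without saline 1 in place of saline 2, the differences were -1.01 (edgeR adjusted p = 0.674) and -1.14 (edgeR adjusted p = 0.26). Between NaBu and Ang II it differed by -0.13 (SE 0.546, edgeR adjusted p = 0.92), with a positive sign in 2 of 19 alternatives. Divided by the ventricular marker sum, Ppp1r3a was at 2.14, 0.382 and 1.47 per 1000 ventricular CPM in saline 1, 2 and 3, and between 0.322 and 0.643 in the 6 treated libraries. Saline 2, below every other library in CPM, lay within the range of the treated libraries on this scale, and the part of its atrial transcripts in its Ppp1r3a level was not tested.

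Ppp1r3c, a widely expressed targeting subunit that also binds glycogen synthase and phosphorylase, was at 137, 89.6 and 167 CPM in saline 1, 2 and 3. It was at 142, 145 and 149 CPM in Ang II, and at 179, 178 and 193 CPM in NaBu. The NaBu libraries were above all 6 others, while Ang II lay inside the saline range. The log2 difference was 0.33 between NaBu and Ang II (SE 0.182, edgeR adjusted p = 0.315) and 0.48 between NaBu and saline (SE 0.182, edgeR adjusted p = 0.141), the latter 0.28 without saline 2. Without saline 2 Ppp1r3c rose by 0.35 between NaBu and Ang II (edgeR adjusted p = 0.0412, and 0.025 to 0.756 over all alternatives with edgeR or DESeq2).

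Ppp1r3d, a further targeting subunit of the same phosphatase, was at 49.8, 46.5 and 42.3 CPM in saline, at 53.2, 59.0 and 62.4 CPM in Ang II, and at 64.0, 66.4 and 67.1 CPM in NaBu. No library of one group overlapped another, and the order saline, Ang II, NaBu held for every library. Ppp1r3d rose between saline and NaBu by 0.51 on the log2 scale (SE 0.0976, edgeR adjusted p = 0.026), from 46.2 ± 3.80 to 65.8 ± 1.60 CPM (n = 3). The steps from saline to Ang II (0.33, SE 0.0976, edgeR adjusted p = 0.74) and from Ang II to NaBu (0.18, SE 0.0972, edgeR adjusted p = 0.315) did not pass the test. Ppp1r3d was the 1 member whose Ang II libraries were all above the saline libraries, where 4.94% of all genes were, and for 0 members were they all below, as they were for 4.97% of all genes.

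**Figure D1:**
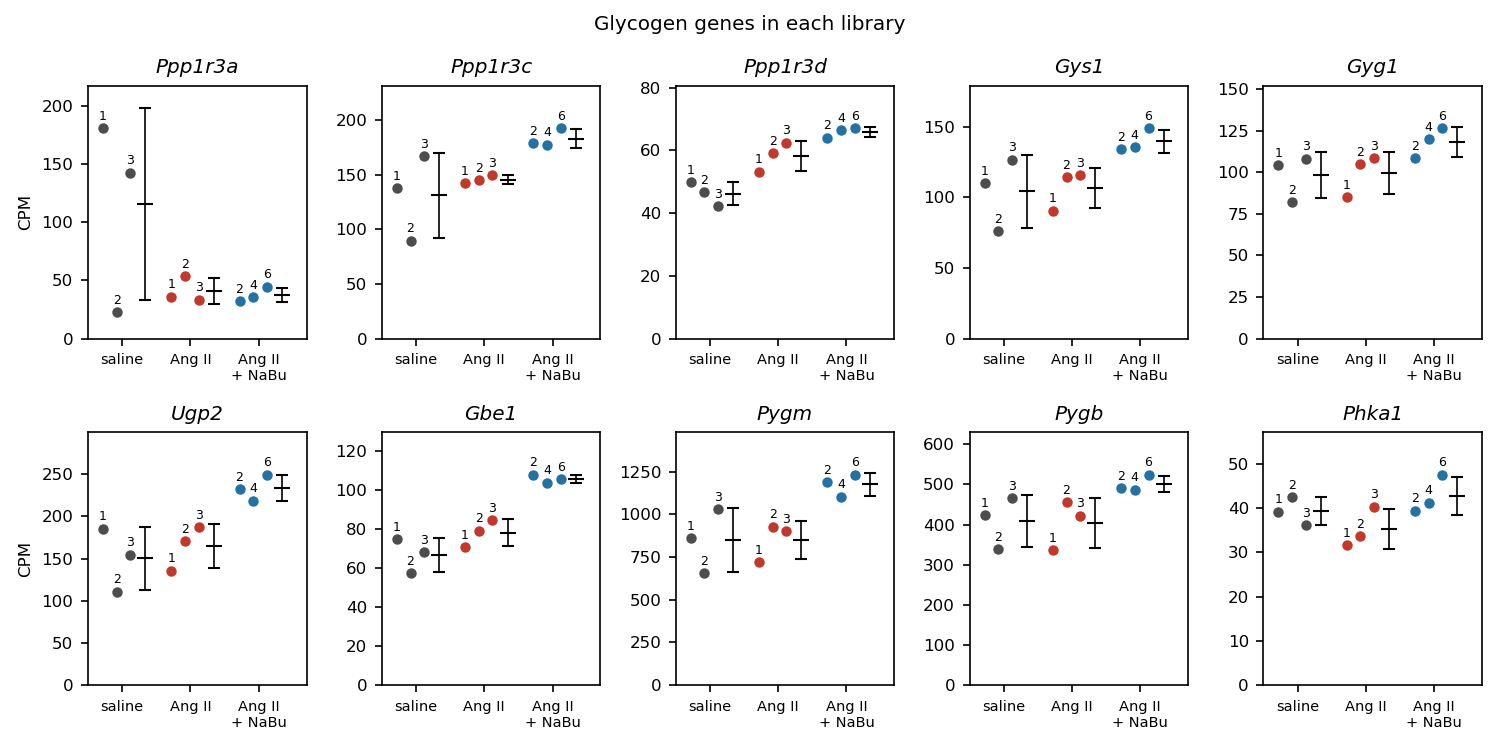
Level of each of the 10 glycogen genes in CPM (vertical axis, from 0) in the 3 saline (grey), 3 Ang II (red) and 3 Ang II with NaBu (blue) libraries. The library number is above each point and the mean ± SD to the right of each group. Ppp1r3a is spread from 22.7 to 181 CPM in saline, and Gbe1 lies between 104 and 108 CPM in NaBu, above the other 6 libraries.

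The 4 genes of glycogen synthesis averaged higher in NaBu than in either other group, except that Gyg1 differed from saline by -0.02 on the log2 scale when libraries were scaled to ventricular markers. Of the 4, Gbe1 passed the test against saline. Gyg1, glycogenin, the protein on which a glycogen chain is begun, was at 104, 82.2 and 108 CPM in saline, at 84.9, 105 and 109 CPM in Ang II, and at 108, 120 and 127 CPM in NaBu. The top Ang II library (108.6 CPM) and the lowest NaBu library (108.4 CPM) lay side by side, so these groups just overlapped. The difference between NaBu and Ang II was 0.25 on the log2 scale (SE 0.135, edgeR adjusted p = 0.304).

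Ugp2, which makes UDP-glucose, was at 185, 111 and 155 CPM in saline, at 136, 171 and 187 CPM in Ang II, and at 232, 219 and 250 CPM in NaBu. All NaBu libraries were above the other 6, and saline and Ang II overlapped. The log2 difference was 0.50 between NaBu and Ang II (SE 0.181, edgeR adjusted p = 0.145) and 0.63 between NaBu and saline (SE 0.181, edgeR adjusted p = 0.0685). Without saline 2, Ugp2 rose between Ang II and NaBu by 0.52 (edgeR adjusted p = 0.0364, and 0.0305 to 0.489 over all alternatives with edgeR or DESeq2).

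Gys1, the muscle form of glycogen synthase, was at 110, 76.0 and 127 CPM in saline, at 90.6, 114 and 116 CPM in Ang II, and at 134, 136 and 149 CPM in NaBu. Again the NaBu libraries were above the rest and saline 2 was the lowest library. The difference was 0.39 between NaBu and Ang II (SE 0.174, edgeR adjusted p = 0.224) and 0.42 between NaBu and saline (SE 0.174, edgeR adjusted p = 0.168) on the log2 scale, the latter 0.25 without saline 2.

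Gbe1, the branching enzyme, was at 74.8, 57.4 and 68.2 CPM in saline, at 70.8, 79.3 and 84.8 CPM in Ang II, and at 108, 104 and 106 CPM in NaBu. NaBu was above both other groups, whose ranges met between 70.8 and 74.8 CPM. Gbe1 rose between saline and NaBu by 0.66 on the log2 scale (SE 0.114, edgeR adjusted p = 0.0201), a change of 1.58-fold from 66.8 ± 8.77 to 106 ± 2.11 CPM (n = 3). Between Ang II and NaBu the difference of 0.44 (SE 0.114) had an edgeR adjusted p of 0.0767, and without saline 2 it passed the test (0.45, edgeR adjusted p = 0.0217, and 0.00943 to 0.536 over all alternatives with edgeR or DESeq2). Between saline and Ang II it was 0.23 (SE 0.114, edgeR adjusted p = 0.873).

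The breakdown genes Pygm and Pygb showed the same order of levels, with NaBu libraries on top. Pygm, the muscle phosphorylase that releases glucose units from glycogen, was at 859, 657 and 1031 CPM in saline, at 719, 928 and 902 CPM in Ang II, and at 1191, 1104 and 1233 CPM in NaBu. The mean was 849 ± 187 CPM in saline and 849.9 ± 114 CPM in Ang II, and 1176 ± 65.9 CPM in NaBu (n = 3). The log2 difference between NaBu and Ang II was 0.47 (SE 0.165, edgeR adjusted p = 0.139), and Pygm rose by 0.48 without saline 2 (edgeR adjusted p = 0.0337, and 0.0262 to 0.4 over all alternatives with edgeR or DESeq2).

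Pygb, the brain phosphorylase isoenzyme, was at 423, 339 and 466 CPM in saline, at 336, 455 and 422 CPM in Ang II, and at 491, 487 and 524 CPM in NaBu. Its NaBu libraries were also above the other 6, by a smaller step of 0.31 against Ang II (log2, SE 0.145, edgeR adjusted p = 0.243). Phka1, the muscle alpha subunit of phosphorylase kinase, was at 39.2, 42.5 and 36.2 CPM in saline, at 31.7, 33.6 and 40.3 CPM in Ang II, and at 39.4, 41.2 and 47.6 CPM in NaBu. All 3 groups of Phka1 overlapped, and the difference between NaBu and Ang II was 0.28 on the log2 scale (SE 0.12, edgeR adjusted p = 0.206).

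Over the 10 members, 0 were called (edgeR adjusted p under 0.05) between Ang II and saline, where 0% of all genes were called with edgeR in either direction. At an unadjusted p under 0.05 there were 2 members (Ppp1r3a, lower, and Ppp1r3d, higher) and 5.94% of all genes, and DESeq2 called 0 members. The median log2 difference was 0.03, against -0.0045 for all genes tested, with 7 members higher and 3 lower. Of these directions, Gyg1 and Pygm (both -0.03) turned when scaled to ventricular markers and Pygb (0.05) with total count scaling. Leaving out saline 2 turned Ppp1r3c (-0.07), Gys1 (-0.15), Gyg1 (-0.10), Ugp2 (-0.05) and Pygm (-0.16). Some of these members turned in other alternatives too. With 1 library left out the median ranged from -0.10 (without saline 2) to 0.16 (without saline 3), so its sign was not stable. Between NaBu and Ang II edgeR called 0 members, where 1.6% of all genes were called (0.647% higher and 0.957% lower in NaBu). There 4 members (Gbe1, Pygm, Ugp2 and Phka1) and 22.4% of all genes had an unadjusted p under 0.05. DESeq2 called 3 members (Gbe1, Pygm and Ugp2) and 1521 of all genes. Without saline 2, which is in neither group compared, edgeR called 4 members (those 3 and Ppp1r3c) and 1482 of all genes. With any other library left out alone, no member was called.

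Of the 10 members, 9 were higher in NaBu than in Ang II (8 when scaled to ventricular markers, where Ppp1r3d was lower), with a median of 0.32 against -0.0247 for all genes, and in 7 every NaBu library was above every Ang II library, as for 18.1% of all genes (17.5% had every NaBu library below). Against saline 9 were higher in NaBu (7 when scaled to ventricular markers, where Gyg1 and Phka1 were lower, and 8 with the highest transcript per gene, where Phka1 was), with a median of 0.45 (-0.0510 for all genes). That median was 0.27 without saline 2 and at most 0.52 with another library left out. There every NaBu library was above every saline library for 8 members and 14.5% of all genes, and below for 0 members and 14.1% of all genes. There 2 members rose and 0 fell, while 5.06% of all genes were called, 3.01% higher and 2.05% lower. At an unadjusted p under 0.05 there were 7 members and 24.6% of all genes. Since these contrasts were in view when the members were chosen, nothing is read from the counts. The comparisons with NaBu share the NaBu libraries, and those with saline share the saline libraries, so they are not independent of each other. The 2 calls against saline, Gbe1 and Ppp1r3d, were both lost without any 1 of the 3 NaBu libraries, and Ppp1r3d also without Ang II 2. Ppp1r3d was also lost with total count scaling. Both were lost with only the NaBu and saline groups in the fit, with the highest transcript per gene, and with scaling to ventricular markers. They were also not called with saline 2 and 3 left out together, where saline has 1 library.

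**Figure D2:**
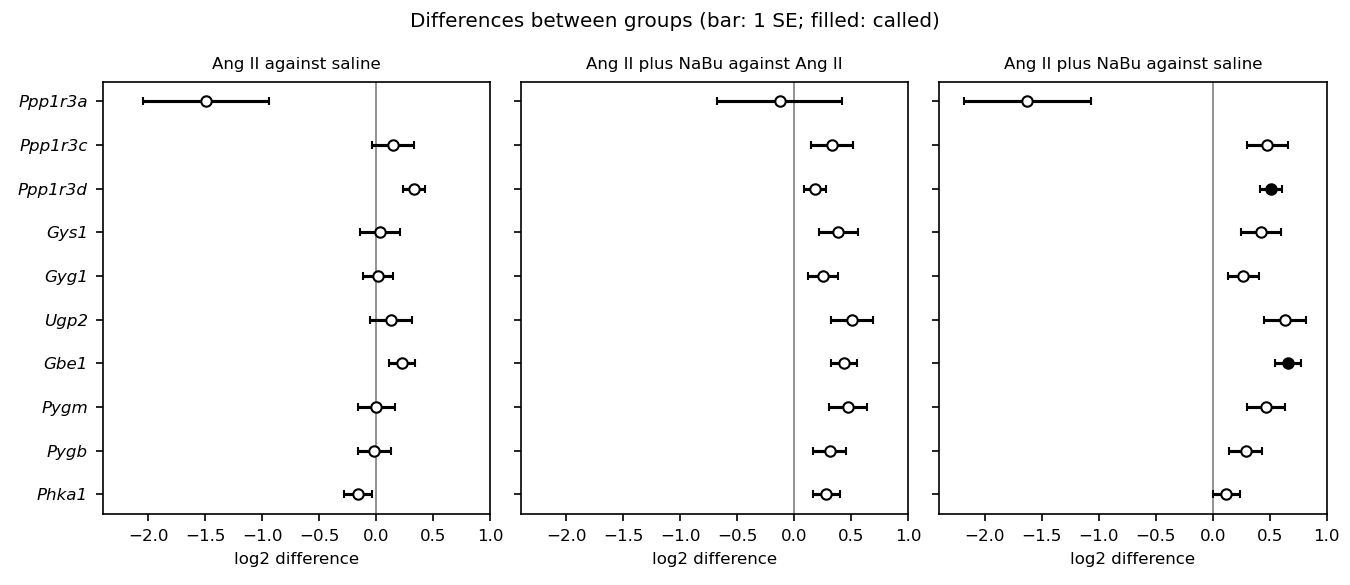
Log2 difference (horizontal axis) of the 10 glycogen genes in the 3 comparisons, with bars of 1 SE and filled points for an edgeR adjusted p under 0.05. The filled points are Gbe1 (0.66) and Ppp1r3d (0.51) in Ang II with NaBu against saline, and Ppp1r3a has the widest bars.

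Ventricular cardiomyocyte markers moved with these levels. Between NaBu and Ang II 11 of the 12 markers were higher, with a median log2 difference of 0.43 and 0 called, against 0.32 for the glycogen genes. Over the 9 libraries, log2 levels of 7 members followed the log2 ventricular sum with Pearson's r between 0.76 (Gbe1) and 0.97 (Ppp1r3c), as a description of libraries that share depth, tissue and group. For Ppp1r3d r was 0.43, for Ppp1r3a 0.36 and for Phka1 0.10. After removing group means, r was 0.98 for Ppp1r3c, 0.92 for Gys1 and 0.73 for Gbe1, and it was 0.89 for Ppp1r3a and -0.18 for Ppp1r3d. All these r values include saline 2, which had the lowest ventricular sum (59551 CPM) and the lowest Ppp1r3a level (22.7 CPM). They were not computed without saline 2. Saline 1 had more Ppp1r3a (181 CPM) at a lower sum (84346 CPM) than saline 3 (142 CPM at 96668 CPM). Whether Ppp1r3a follows the sum within groups apart from saline 2 was thus not tested.

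When libraries were scaled to the ventricular sum in place of TMM, a choice made after the data were seen, the median of all genes shifted from -0.025 to -0.27 between NaBu and Ang II and from -0.051 to -0.38 between NaBu and saline. The members' median was then 0.08 between NaBu and Ang II and 0.17 between NaBu and saline. With scaling by total count the NaBu and Ang II medians were -0.13 for all genes and 0.21 for the members. When scaled to the ventricular sum, Ugp2 differed by 0.26, Pygm by 0.22, Gbe1 by 0.19, Gys1 by 0.14 and Ppp1r3d by -0.07, and 0 members were called in any comparison. Per 1000 ventricular CPM, Gbe1 was at 0.705 to 0.964 in saline, 0.902 to 1.03 in Ang II and 1.06 to 1.14 in NaBu, without overlap between NaBu and the rest. Ugp2 (2.33 to 2.50 in NaBu, at most 2.26 elsewhere) and Pygm (up to 12.3 in NaBu, at most 11.1 elsewhere) also did not overlap. The share of all genes without overlap on this scale was not computed, so nothing is read from these genes. For Ppp1r3c, Gys1, Gyg1, Pygb, Ppp1r3d and Phka1 the NaBu libraries overlapped other libraries on this scale. The part of cardiomyocyte content in the NaBu levels was not tested otherwise.

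**Figure D3:**
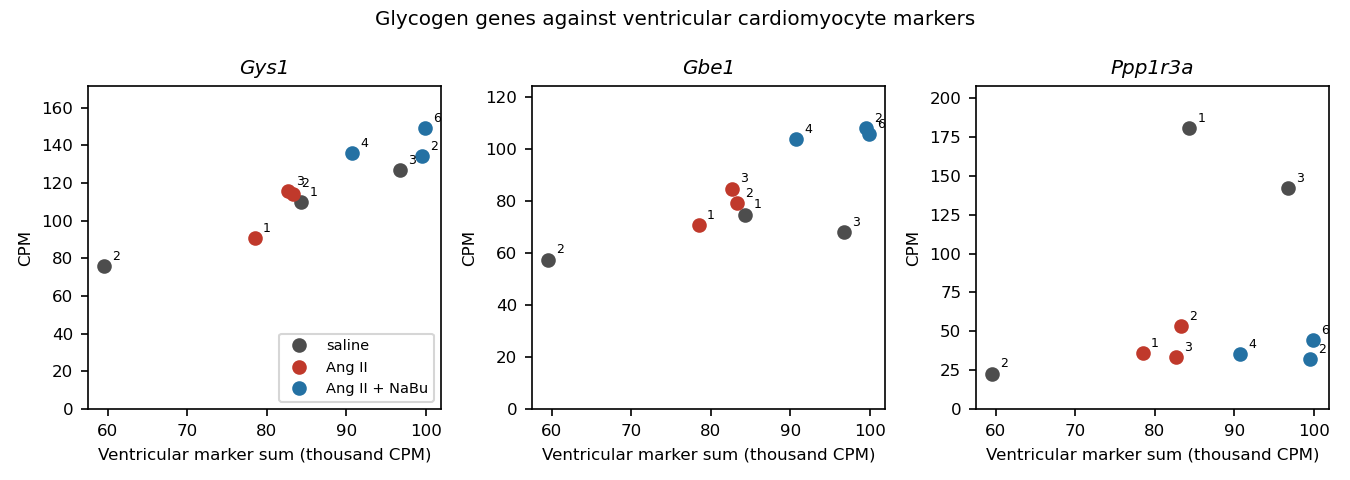
Level of Gys1, Gbe1 and Ppp1r3a in CPM (vertical axes, from 0) against the summed level of 12 ventricular cardiomyocyte markers in units of 1000 CPM (horizontal axes), 1 point per library with its number. Gys1 follows the marker sum over all libraries, the NaBu points of Gbe1 lie above saline 3 at a like sum, and saline 1 and 3 stand apart for Ppp1r3a.

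The skeletal muscle list, relevant because Ppp1r3a, Gys1, Pygm and Phka1 are strongly expressed in skeletal muscle, summed to 127 to 915 CPM in saline, 432 to 603 CPM in Ang II and 790 to 930 CPM in NaBu. Nearly all of that was Acta1, which the heart also expresses, and the other 11 markers together were at 3.93 to 9.20 CPM. Acta1 was at 700, 118 and 908 CPM in saline 1, 2 and 3, so it was low in the same saline library as Ppp1r3a. Of the 12 markers, 2 to 7 were at 0 in a library, and Myh1, Tnnc2 and Pvalb were at 0 in 8 of the 9. Fibroblast markers summed to 2662, 4532 and 3829 CPM in saline 1, 2 and 3, to 2626 to 2775 CPM in Ang II and to 2637 to 3317 CPM in NaBu. Endothelial markers summed to 1557 to 1904 CPM in saline, 1619 to 1858 CPM in Ang II and 1356 to 1574 CPM in NaBu, and smooth muscle markers to 364 to 983, 458 to 561 and 355 to 473 CPM. Red cell markers were at 1262 to 1795, 1684 to 3011 and 1510 to 1877 CPM. Fat cell markers summed to 330 to 544 CPM over all libraries, nearly all of it Fabp4. Saline 2 alone had all 7 above 0, and Cidec and Retn were at 0 in the other 8 libraries, where 2 to 5 markers were at 0. Macrophage and lymphocyte markers summed to 192 to 296 CPM and nerve and glia markers to 21.8 to 75.0 CPM. Saline 2 had the highest fibroblast (4532 CPM), endothelial (1904 CPM) and smooth muscle (983 CPM) sums. Its macrophage and lymphocyte sum (296 CPM) and nerve and glia sum (75.0 CPM) were also the highest. Its red cell and fat cell sums were not. The part of these cell types in the members' levels was not tested.

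Among Ppp1r3c, Gys1, Gyg1, Ugp2, Gbe1, Pygm and Pygb, Pearson's r of log2 CPM over the 9 libraries was between 0.79 (Gbe1 and Pygb) and 0.98 (Gys1 and Pygm). These points share library, depth and tissue makeup, and r is a description. Ppp1r3d was closest to Gbe1 (0.88). Phka1 had r of at most 0.48 (with Gyg1), and Ppp1r3a had r from -0.49 (with Ppp1r3d) to 0.24 (with Gys1, Gyg1 and Pygb). After removing group means, Ppp1r3a had r of 0.73 (Pygb) to 0.89 (Ppp1r3c) with the 7 genes above. With group means kept, its r with them was -0.19 (Gbe1) to 0.24 (Pygb) over the 9 libraries. Without saline 2, and with group means kept, it was -0.60 (Gbe1) to 0.002 (Pygb). Values with group means removed were not computed without saline 2. Over the 9 libraries Gys1 and Pygm, a synthase and a phosphorylase that act in opposite directions on glycogen, had the highest r of any pair of members. After removing group means Ugp2 and Gbe1 had the highest (0.979), with Gys1 and Pygm at 0.975. With group means kept and saline 2 left out, r of Phka1 with the members other than Ppp1r3a was 0.53 to 0.89.

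**Figure D4:**
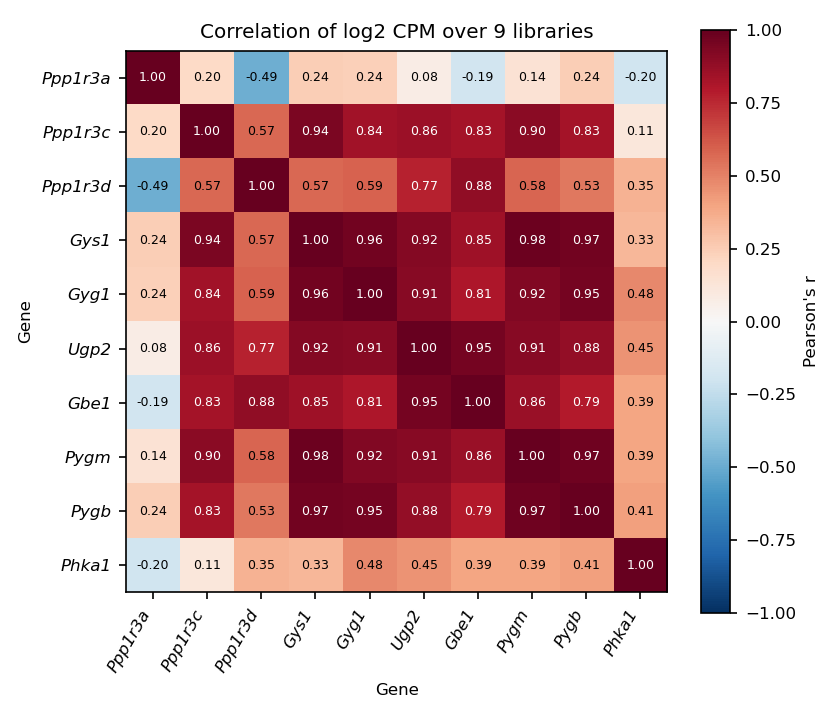
Pearson's r of log2 CPM between each pair of the 10 glycogen genes over the 9 libraries, in colour (red positive, blue negative) and as numbers. The block of 7 genes from Ppp1r3c to Pygb, leaving out Ppp1r3d, has values of 0.79 and above, and the row of Ppp1r3a has values between -0.49 and 0.24.

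Genes outside the list with the most similar pattern were ranked over 10152 genes by r of log2 CPM over the 9 libraries. For Gys1 these were Actc1, cardiac actin (0.994), the glycolytic enzyme gene Tpi1 (0.992), Cluh (0.991), Phb2 (0.991) and Pla2g5 (0.991). Actc1 was at 8290, 4578 and 9894 CPM in saline, 6086 to 8128 CPM in Ang II and 10465 to 12444 CPM in NaBu. For Ppp1r3a they were Gramd4 (0.94), Gngt2 (0.93), Cyfip1 (0.92), Speg, a kinase of striated muscle (0.91), and Nosip (0.88). Gramd4 was at 82.7, 65.7 and 80.3 CPM in saline and at 63.1 to 72.0 CPM in the 6 treated libraries, so it had the same 2 saline libraries on top over a much smaller range.

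The 10 members have 16 transcripts, and 5 members have more than 1. Ugp2 has 2 transcripts, and XM_006251538.1 took 49.2% of its estimated counts in saline 3 and 8.41% to 11.9% in the other 8 libraries. For Gyg1, XM_017591132.1 took 38.2% in saline 2 and 3.11% to 8.87% elsewhere. Each of these shares rests on 1 library. For Ppp1r3a, NM_001109222.1 took 44.2% of the gene in Ang II 1 and 69.3% to 99.9% in the other 8 libraries. It was at 4733, 636 and 3155 estimated counts in saline 1, 2 and 3, 528 to 1842 in Ang II and 1162 to 1962 in NaBu. Its second transcript, XM_008762717.2, had 1293, 219 and 539 estimated counts in saline, from 1 to 666 in Ang II and from 1 to 194 in NaBu. Both transcripts were thus lower in saline 2 than in saline 1 and saline 3. For Phka1, XM_006257102.3 took 48.6% to 99.4% of the gene. How reads were divided among transcripts is not given in the sources used here, and 14 of the 16 transcript IDs matched the same gene in the RefSeq table.

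**Figure D5:**
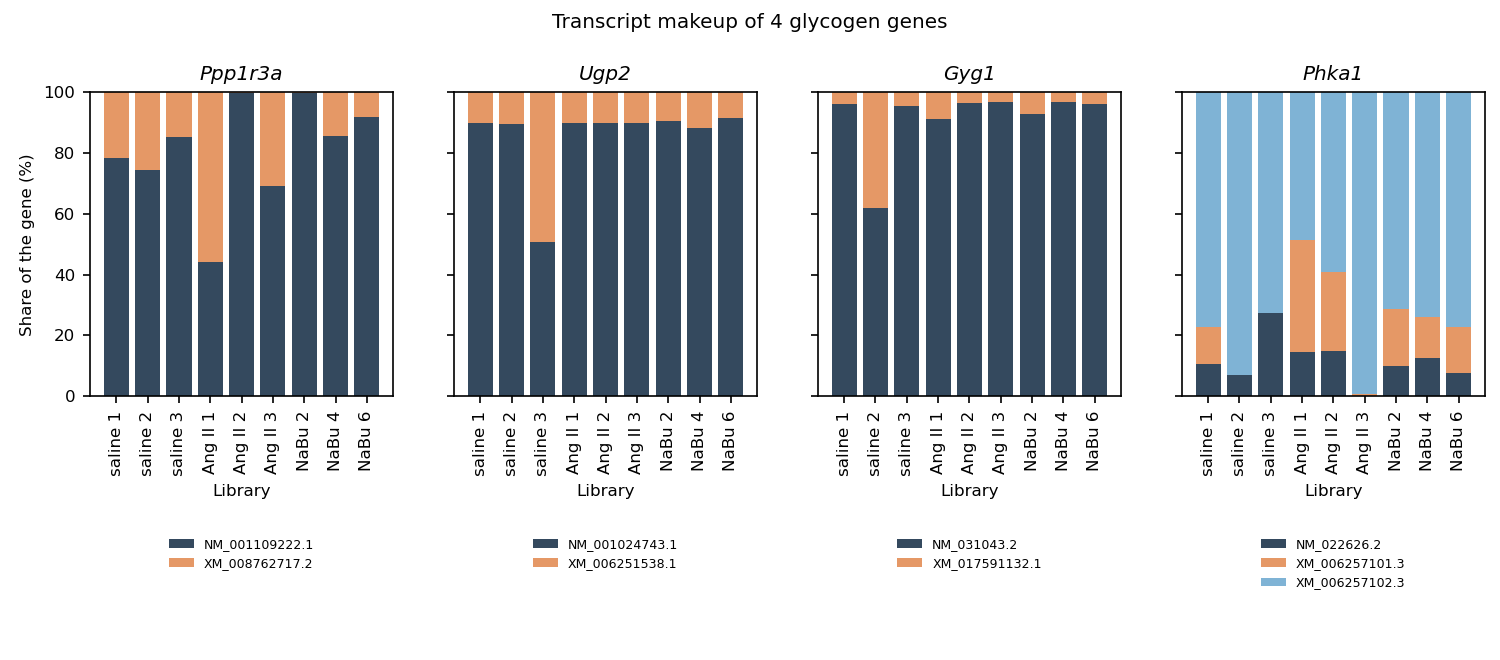
Share of each gene's estimated counts (vertical axis, percent) that each transcript takes in the 9 libraries (horizontal axis) for Ppp1r3a, Ugp2, Gyg1 and Phka1, with the deposited transcript IDs under each panel. Saline 3 stands apart for Ugp2 and saline 2 for Gyg1.

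Of 25 other genes of glycogen metabolism, 23 were tested, and 0 passed the edgeR test between Ang II and saline or between NaBu and Ang II. At an unadjusted p under 0.05 there were 1 and 11 of the 23, against 5.94% and 22.4% of all genes. DESeq2 called 0 and 4 of them, and 57 and 1521 of all genes. Between NaBu and saline 11 of 23 and 24.6% of all genes had an unadjusted p under 0.05. There 3.01% of all genes rose and 2.05% fell, and of the 23 genes 0 fell and 1 rose. It was Ppp1cc, a catalytic subunit of protein phosphatase 1, at 113, 113 and 106 CPM in saline, 115, 119 and 122 CPM in Ang II and 145, 146 and 161 CPM in NaBu. Every NaBu library of Ppp1cc was above every other library, with a log2 difference of 0.45 against saline (SE 0.0865, edgeR adjusted p = 0.0263). The call was lost without any 1 NaBu library, without saline 1, Ang II 2 or Ang II 3, with saline 2 and 3 left out together, with total count scaling, with only the 2 groups in the fit, with the highest transcript per gene, and when scaled to ventricular markers (0.11, edgeR adjusted p = 0.711, and 2.31e-05 to 0.711 over all alternatives with edgeR or DESeq2). The medians of the 23 log2 differences were -0.01 from saline to Ang II, 0.17 from Ang II to NaBu and 0.15 from saline to NaBu.

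Within that list, Pgm1, the phosphoglucomutase that links glucose 1-phosphate to glycolysis, was at 150, 88.5 and 150 CPM in saline, 110 to 140 CPM in Ang II and 166 to 193 CPM in NaBu, a log2 difference of 0.48 between NaBu and Ang II (SE 0.19, edgeR adjusted p = 0.179). Without saline 2, Pgm1 rose by 0.50 (edgeR adjusted p = 0.0273, and 0.0269 to 0.461 over all alternatives with edgeR or DESeq2). Ppp1cb, the main catalytic subunit on glycogen in muscle, was at 365 ± 36.1, 375 ± 53.9 and 509 ± 45.0 CPM in saline, Ang II and NaBu (n = 3), with 0.48 between NaBu and saline (SE 0.132, edgeR adjusted p = 0.0629). Phkb, the beta subunit of phosphorylase kinase, differed by 0.48 between NaBu and Ang II (SE 0.19, edgeR adjusted p = 0.175), with overlap. Phka2, the liver alpha subunit, went the other way, at 11.6 ± 1.26 CPM in Ang II and 7.34 ± 1.12 CPM in NaBu (-0.67, SE 0.266, edgeR adjusted p = 0.182). Without saline 2, Phka2 fell by 0.65 (edgeR adjusted p = 0.0432, and 0.0307 to 0.694 over all alternatives with edgeR or DESeq2). The 2 alpha subunits of phosphorylase kinase thus had differences of opposite sign, 0.28 and -0.67, neither of which passed the test with all libraries. Calm2, a calmodulin gene, differed by -0.34 between Ang II and saline (SE 0.14, edgeR adjusted p = 0.796), Nhlrc1, which encodes malin, by 0.23 (SE 0.246) and Ppp1ca by 0.12 (SE 0.105). The liver synthase Gys2 had 0 to 11 estimated counts and Ppp1r3e 0 to 18 in each library. Ppp1r3g had 0 in the 3 NaBu libraries and 5 to 16 elsewhere, and Ppp1r3f had 0 to 24, where 12 estimated counts would be 3 fragments if 1 fragment gave 4. No fold is given for these 4 genes.

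Among 12 genes of glucose uptake and glucose phosphates, 11 were tested and 0 were called by edgeR between Ang II and saline or between NaBu and Ang II (1 and 3 at an unadjusted p under 0.05, against 5.94% and 22.4% of all genes). Between saline and NaBu 4 of the 11 and 24.6% of all genes had an unadjusted p under 0.05. There 0 of the 11 rose and 1 fell, where 3.01% of all genes rose and 2.05% fell. Pgm3, which makes N-acetylglucosamine 1-phosphate for protein glycosylation, was the 1 gene that fell between saline and NaBu, from 8.76 ± 0.301 to 5.31 ± 0.658 CPM (-0.72, SE 0.157, edgeR adjusted p = 0.0346). That call held in 7 of 19 alternatives, with an edgeR or DESeq2 adjusted p of 0.00367 to 0.193. Its Ang II libraries, at 6.14 to 7.25 CPM, lay between the other groups without overlap. Hk2, the insulin-sensitive hexokinase, was at 150.6 ± 45.5 CPM in saline, 160.3 ± 1.30 CPM in Ang II and 210.1 ± 14.6 CPM in NaBu (0.48 against saline, SE 0.188, edgeR adjusted p = 0.15, and 0.28 without saline 2). Ugdh, which uses UDP-glucose, differed by 0.09 between Ang II and saline (SE 0.174).

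Of 9 AMP-activated kinase genes, whose product senses low energy and itself binds glycogen through its beta subunits, 0 were called by edgeR in any comparison, and 0 (saline and Ang II), 3 (Ang II and NaBu) and 5 (saline and NaBu) had an unadjusted p under 0.05. Over all genes these shares were 5.94%, 22.4% and 24.6%. Prkaa2, the main catalytic subunit in muscle, was at 479 ± 106 CPM in Ang II and 692 ± 71.4 CPM in NaBu (0.53, SE 0.163, edgeR adjusted p = 0.105). Camkk2, an upstream kinase, was at the low end with -0.55 (SE 0.218, edgeR adjusted p = 0.181). Prkag2, a regulatory subunit, differed by -0.77 between Ang II and saline (SE 0.376, edgeR adjusted p = 0.866), where saline 2 alone was at 119.7 CPM and all other libraries were between 35.1 and 42.4 CPM. Without saline 2 the difference was 0.015. Stk11, the other upstream kinase, differed by 0.07 (SE 0.116).

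Of 17 genes of insulin and adrenergic control, 0 were called by edgeR between Ang II and saline (1 at an unadjusted p under 0.05, against 5.94% of all genes), where Adrb1, the main cardiac beta receptor, was lowest (-0.55, SE 0.21) and Ppp2ca highest (0.27, SE 0.123). Between Ang II and NaBu 1 of 17 rose, against 0.647% of all genes. It was Prkar2a, which encodes an inhibitory subunit of kinase A, from 104 ± 11.2 to 172 ± 11.7 CPM (0.73, SE 0.132, edgeR adjusted p = 0.0423), a call that held in 9 of 19 alternatives (edgeR or DESeq2 adjusted p of 3.08e-05 to 0.2). Between saline and NaBu 6 of 17 rose and 0 fell, where 3.01% of all genes rose and 2.05% fell: Prkar2a (0.74, edgeR adjusted p = 0.0213), Prkar1a (0.41, edgeR adjusted p = 0.0432), the catalytic subunit Prkacb (0.43, edgeR adjusted p = 0.0427), the insulin signalling kinase Akt1 (0.59, edgeR adjusted p = 0.0339), the phosphatase subunit Ppp2ca (0.66, edgeR adjusted p = 0.0248) and the phosphatase 1 inhibitor Ppp1r2 (0.67, edgeR adjusted p = 0.0306). Every NaBu library was above every saline library in 10 of the 17 and 14.5% of all genes, and below in 1 and 14.1%. The 6 are among these 10, which adds nothing to calls from the same libraries. All 6 calls were lost without any 1 of the 3 NaBu libraries, with only the 2 groups in the fit, with the highest transcript per gene, and when scaled to ventricular markers, there with log2 differences of 0.093 (Prkar1a) to 0.45 (Prkar2a). Calls held in 5 (Prkar1a and Prkacb) to 11 (Prkar2a) of 19 alternatives. Of the 6, 4 stayed called with upper-quartile scaling and 3 with total count scaling or without saline 2. Without saline 1 or Ang II 2, 2 stayed called, and without Ang II 3 only Prkar2a did. With no filter, without saline 3 or without Ang II 1, 5 stayed called. All 6 did with DESeq2, with its size factors in edgeR and with values divided by 4. With the highest transcript per gene Prkacb was at -0.046. Kinase A activates phosphorylase kinase, and of its genes that rose Prkacb encodes a catalytic subunit while Prkar1a and Prkar2a encode subunits that hold the enzyme inactive.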

How the data were processed

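The 9 libraries came as 3 tables, 1 for each group (saline, Ang II, Ang II with NaBu). Per the file headers a table lists transcript IDs, gene names and the libraries, and the deposited values are whole-number estimated counts. Low values above 1 peak near multiples of 4, as if 1 fragment gave about 4 deposited estimated counts, which is an inference from the values. In the saline table a stray line-end character was removed from the last column, whose deposited values, like the other tables' values, are estimated counts. The submitters' processing notes name Bowtie 0.12.2 and mm8, a build of the mouse genome, although these are rat RefSeq transcripts. How reads were counted, and whether by strand, is not given in the sources used here. Genes with near-identical copies or overlapping neighbours are therefore uncertain. With 1 table per group, differences in processing and differences between groups cannot be told apart. NaBu columns are numbered 2, 4 and 6 where the sample titles have 1, 2 and 3, and were therefore assigned to the group only. There were 0 unused sample columns.

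Values were summed by gene name and fitted with edgeR 4.0.16 in R 4.3.3 (quasi-likelihood test, TMM scaling, filterByExpr, 3 groups in 1 fit, prior count 0.125). A gene was called at a Benjamini-Hochberg adjusted p under 0.05 over 15467 genes. Correlations used log2(CPM + 0.5). Alternatives were DESeq2 1.42.0, other scalings, no filter, values divided by 4, fits of only the 2 groups compared, the highest transcript per gene, leaving out libraries, and a block on replicate number. Scaling to ventricular markers was added after the data were seen. The members and lists were chosen with earlier results of these data known. Besides the members, the text names called genes and the largest and smallest differences in each list, and the 5 genes with a mean of at least 5 CPM most like Ppp1r3a and Gys1. Some genes that this rule selects are not reported here. The fits were tested on simulated counts.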

Additional observations from a re-analysis of the deposited data

How the results depend on the processing

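The lowest member value in any library was 855 estimated counts (Ppp1r3a in saline 2). How much depth and how much the spread between libraries limit the comparisons was not tested. The 10 glycogen genes gave 0 calls from saline to Ang II, 0 from Ang II to NaBu and 2 from saline to NaBu. In the same order the counts were 0, 3 and 5 with DESeq2, 0, 5 and 0 with only the 2 groups in the fit, and 1, 4 and 1 with saline 2 and 3 left out together. That last setting leaves 1 saline library, assumed to vary like the other groups. From saline to NaBu the count was 1 with total count scaling, 0 with the highest transcript per gene and 0 when scaled to ventricular markers. Leaving out 1 library gave 0 to 1, 0 to 4 and 0 to 4 calls. The other glycogen genes gave 0, 0 and 1 calls, against 0, 4 and 7 with DESeq2, 0, 6 and 0 with only the 2 groups in the fit and 0, 6 and 0 with saline 2 and 3 left out together. From saline to NaBu that count was 0 with total count scaling, 0 with the highest transcript per gene and 0 when scaled to ventricular markers, and leaving out 1 library gave 0, 0 to 5 and 0 to 4. With DESeq2 size factors or upper-quartile scaling in edgeR, no filter, or values divided by 4, the calls in both lists were the same genes. The cause of these changes was not tested.

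Over all genes, edgeR called 0 from saline to Ang II (57 with DESeq2, 0 to 7 with 1 library left out). It called 248 from Ang II to NaBu, against 1521 with DESeq2, 1802 with only the 2 groups in the fit, 4 with total count scaling, 5 with the highest transcript per gene, 2 when scaled to ventricular markers and 1 to 1482 with 1 library left out. From saline to NaBu it called 782, against 2007, 9, 411, 21 and 8 under those settings and 6 to 1303 with 1 library left out.

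Signs turned for 4 named genes outside the members. Prkacb (saline to NaBu) was at -0.046 with the highest transcript per gene. Prkag2 was at 0.051 (saline to Ang II) and 0.11 (saline to NaBu) with saline 2 and 3 left out together, and with 1 library left out it ranged from -1.05 to 0.015 and from -0.99 to 0.087, the positive ends without saline 2. Stk11 (saline to Ang II) was at -0.014 with the highest transcript per gene and from -0.038 to 0.18 with 1 library left out. Ugdh (saline to Ang II) was at -0.040 when scaled to ventricular markers and from -0.012 to 0.31 with 1 library left out. From saline to Ang II, 4 members (Ppp1r3a, Ppp1r3d, Gbe1 and Phka1) kept their sign in all 20 alternatives, and each of the other 6 turned in at least 1. A replicate block on the saline and Ang II numbers gave 0 calls among members, 0 among the other glycogen genes and 0 over all genes, with Ppp1r3a at -1.18. Same-numbered libraries had r of -0.050, -0.056 and -0.014 between their deviations from the group means, and differently numbered ones had r of -0.028 to 0.065. No pairing by number was thus seen, but a weak one, or one in few genes, could be missed this way. No paired analysis was possible with NaBu because its columns carry other numbers.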
